A study of Mus musculus with 18 samples.

Results

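The genes studied here are the protein-coding neighbours of Mir205hg, the mouse gene whose transcript hosts the microRNA miR-205. They were chosen by name, as the probe sets annotated with Camk1g, Lamb3, G0s2, Hsd11b1, Traf3ip3, Utp25, Syt14, Plxna2 and Cd34. All 9 genes were found, each with 1 probe set, so they make up 9 of 19505 named genes, which 19572 probe sets measure. RNA of 18 samples from female-labelled C57BL/6 mice aged 5 to 6 weeks was measured on Clariom S arrays, a platform of Affymetrix. Skin was taken from wild type (samples 1, 2 and 3), lncKO (4, 5 and 6) and miR-205 KO mice (7, 8 and 9), and pituitary from wild type (10, 11 and 12), lncKO (13, 14 and 15) and miR-205 KO mice (16, 17 and 18). The series title speaks of knockouts of MIR205HG, the long noncoding RNA of the locus, and of miR-205, and lncKO is taken here as the former. The labels do not say what DNA either allele removes, whether the mutation is present in all cells, or whether each sample is a different mouse. P-values therefore rest on the scatter among these samples, and that scatter may be technical.

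A microRNA is cut from a longer transcript and then guides a silencing complex to messenger RNAs by pairing through its seed, the bases near its 5′ end. The transcript that hosts miR-205 can also be spliced into a long noncoding RNA, so that 2 products of a single locus can be removed separately in mice. miR-205 is known as a microRNA of stratified epithelia, with targets in keratinocytes. Genes that lie beside a mutated locus are a standard check in such mice, since an allele can alter nearby DNA as well as its own product.

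The first sequences shown are the mature products of the locus, because they are what 1 of the 2 knockouts is named for. They come from RefSeq annotation of the mouse assembly GRCm38.p6, on the minus strand of chromosome 1, at chr1:193507503-193507524 for the 5p arm and chr1:193507467-193507488 for the 3p arm. Capitals mark the seed, bases 2 to 8.
mmu-miR-205-5p: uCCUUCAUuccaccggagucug
mmu-miR-205-3p: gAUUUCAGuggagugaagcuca

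The 250 bases before the annotated start are shown for the host gene and for the 4 neighbours on which the results turn, namely the gene called in a knockout, the gene whose response differed between tissues, and the genes with the greatest tissue difference in each direction. They are RefSeq promoter windows of GRCm38.p6, at chr1:193510211-193510460 (Mir205hg, minus strand), chr1:193273189-193273438 (G0s2, minus strand), chr1:193301744-193301993 (Lamb3, plus strand, the first of 2 windows listed), chr1:193035776-193036025 (Syt14, minus strand) and chr1:194938571-194938820 (Cd34, plus strand). Capitals mark matches on either strand to TATAAA (bound by the basal transcription machinery), CCAAT (a site of the factor NF-Y), GGGCGG (a site of the Sp factors), CACGTG (an E-box), AGAACA (one arm of a glucocorticoid receptor site) or AGGTCA (one arm of other nuclear receptor sites).
Mir205hg: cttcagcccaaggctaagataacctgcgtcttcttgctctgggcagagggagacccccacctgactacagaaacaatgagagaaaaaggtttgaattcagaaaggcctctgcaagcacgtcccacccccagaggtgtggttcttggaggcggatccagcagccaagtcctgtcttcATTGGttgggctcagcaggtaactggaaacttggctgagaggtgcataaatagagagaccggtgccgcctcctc
G0s2: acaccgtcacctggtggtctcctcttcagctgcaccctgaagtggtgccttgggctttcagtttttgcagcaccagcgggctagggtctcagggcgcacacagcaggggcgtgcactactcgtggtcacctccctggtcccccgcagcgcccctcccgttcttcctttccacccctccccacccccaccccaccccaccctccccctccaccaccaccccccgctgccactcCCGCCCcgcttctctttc
Lamb3: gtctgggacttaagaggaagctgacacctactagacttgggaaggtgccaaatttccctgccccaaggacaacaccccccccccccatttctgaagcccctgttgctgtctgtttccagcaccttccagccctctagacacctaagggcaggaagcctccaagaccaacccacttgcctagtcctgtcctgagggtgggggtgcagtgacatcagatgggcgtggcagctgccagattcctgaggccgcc
Syt14: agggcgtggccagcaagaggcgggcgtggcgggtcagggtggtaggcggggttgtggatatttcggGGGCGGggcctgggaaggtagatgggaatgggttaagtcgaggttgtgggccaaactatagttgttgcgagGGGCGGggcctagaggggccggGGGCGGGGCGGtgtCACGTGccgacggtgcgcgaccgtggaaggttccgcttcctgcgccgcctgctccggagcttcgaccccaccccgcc
Cd34: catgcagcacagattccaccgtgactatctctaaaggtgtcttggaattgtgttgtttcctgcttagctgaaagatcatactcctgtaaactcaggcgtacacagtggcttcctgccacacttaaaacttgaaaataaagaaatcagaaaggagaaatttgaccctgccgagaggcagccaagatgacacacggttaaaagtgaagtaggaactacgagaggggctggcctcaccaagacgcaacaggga

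The Syt14 window is the richest in G and C of the 5, at 69.2%, and holds 25 CpG sites, 4 matches to GGGCGG (2 of them overlapping) and 1 to CACGTG. The G0s2 window holds 67.2% G and C, 11 CpG sites and 1 match to GGGCGG, 18 bases before the start. The Mir205hg window (54% G and C) holds 1 match to CCAAT, and those of Lamb3 (58.8%) and Cd34 (46.4%) hold none of the 6 motifs. Over all 32851 windows of this length the median was 52.4% G and C with 6 CpG sites. GGGCGG was found in 32.7% of the windows, CCAAT in 33.8%, AGAACA in 16.1%, AGGTCA in 14%, TATAAA in 12.4% and CACGTG in 6.02%. These matches describe the letters of the windows only.

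No probe set named Mir205hg or miR-205 was used here, and the genotypes were taken from the labels. The tissue labels were borne out by defining genes. Krt5, a keratin of basal keratinocytes, read 64494 to 88378 in skin and 7 to 14 in pituitary, and Gh, which encodes growth hormone, read 817571 to 966812 in pituitary and 7 to 2501 in skin. The sex label was not. Uty, a gene of the Y chromosome, read 6 to 13 in skin and 1869 to 2339 in pituitary, and Kdm5d 6 to 9 and 172 to 318, so tissue and sex cannot be told apart in any contrast of the tissues below. Array medians lay between 82 and 96, and 22.8% to 25.3% of probe sets read 16 or less, a level used here as the mark of a dim probe set. Wild-type skin samples stood apart from each other in genes of the hair follicle and of the glucocorticoid response. The mean log2 intensity of 8 hair shaft and sheath genes was 7.58, 8.17 and 4.62 in wild type 1, 2 and 3, against 4.45 to 5.24 in the 6 knockout skin samples, and Tsc22d3, a glucocorticoid-induced gene, read 85957 in wild type 3 and 2567 to 14314 in the other 8 skin samples.

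Between wild-type tissues most neighbours of the locus differed in level. In a limma fit over all 18 arrays, 8 of the 9 differed between pituitary and skin, 3 higher in pituitary and 5 lower, where 52.1% of all named probe sets differed (25.7% higher, 26.4% lower). The wild-type samples of these 8 did not overlap, as was so for 27.8% of all named probe sets in each direction. Syt14, Camk1g and Hsd11b1 were higher in pituitary, and Cd34, Lamb3, G0s2, Plxna2 and Traf3ip3 were higher in skin. Utp25 alone did not pass, with a log2 difference of -0.04 ± 0.20 (SE) and a 95% interval of -0.45 to 0.37. In bulk tissue a difference of this kind can come from more cells of a type or from more RNA per cell, and these cannot be told apart here.

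**Figure D1:**
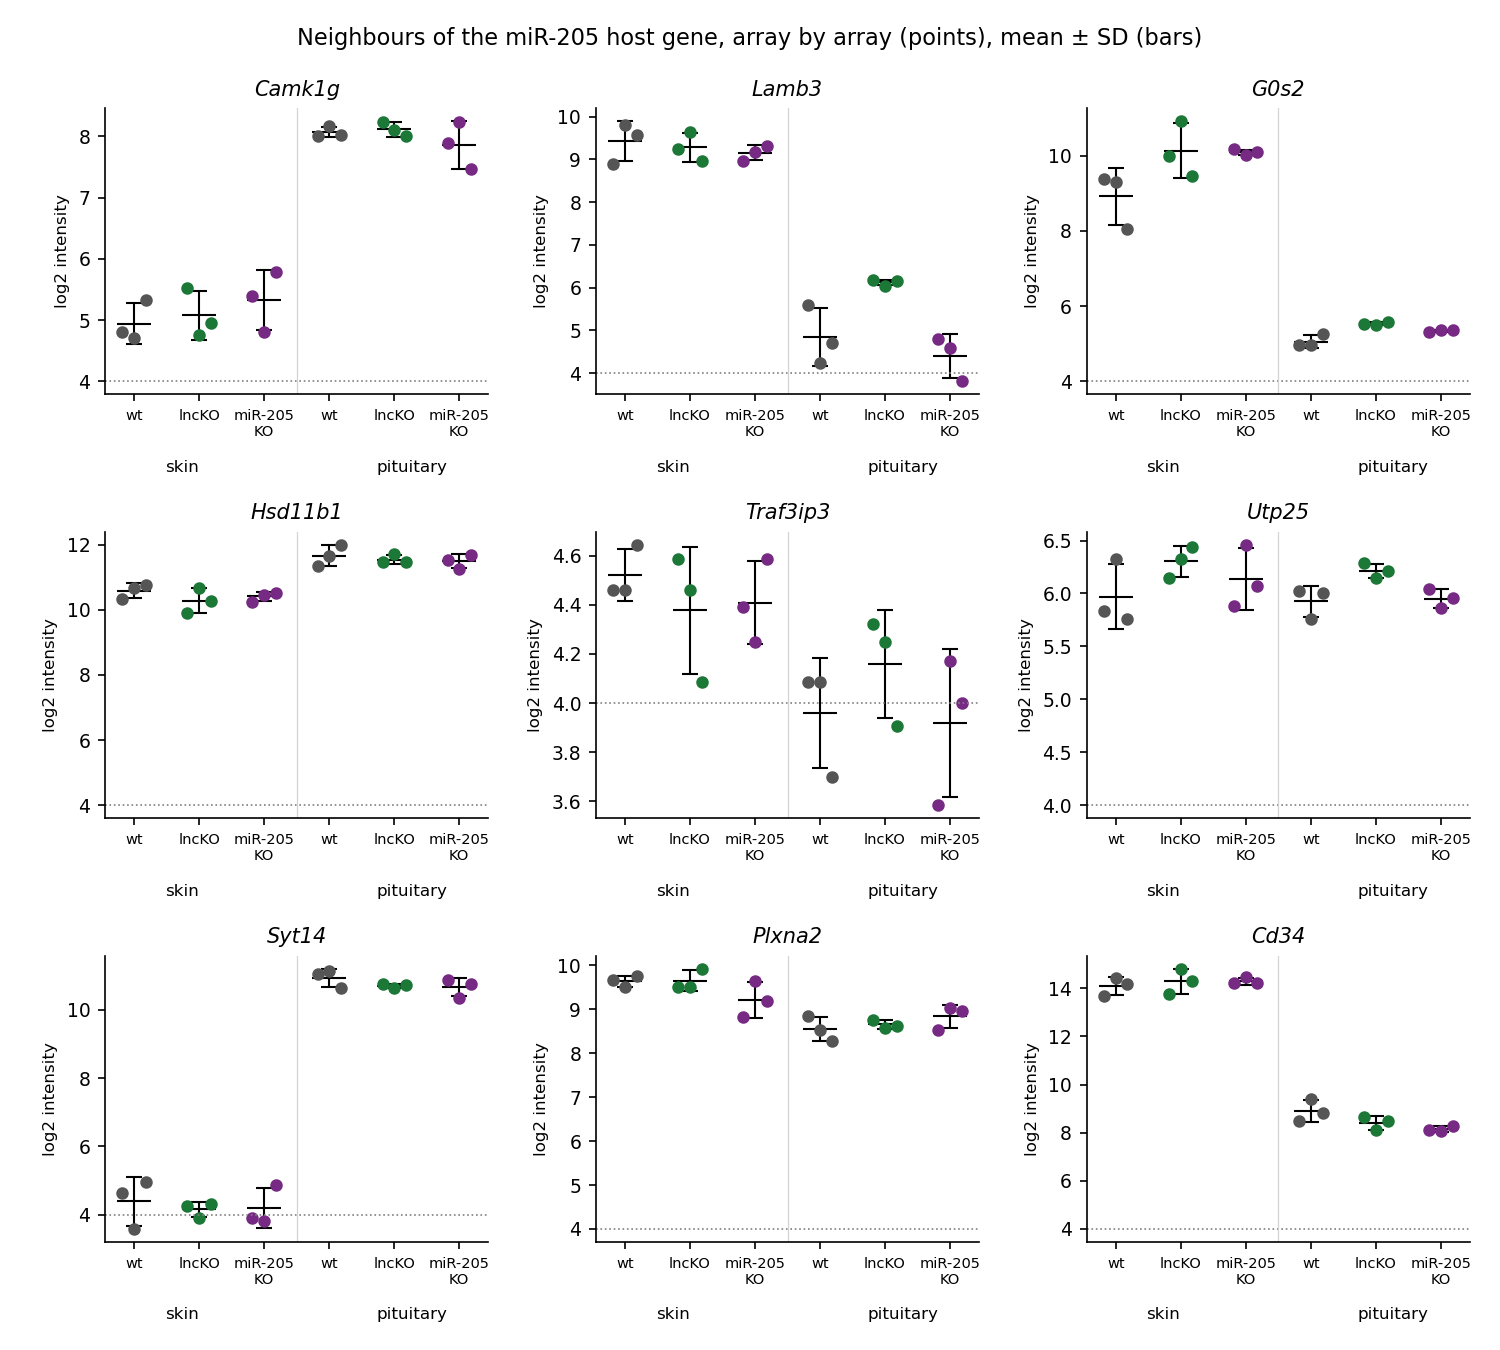
Log2 intensity of the 9 neighbours in each array, with the group mean ± SD (n = 3), by genotype in skin (left of each panel) and pituitary (right). The dotted line marks an intensity of 16. Tissue separates the points of most genes far more than genotype does, and within skin the 6 knockout points of G0s2 lie above the 3 wild-type points.

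Against that tissue pattern, few neighbours differed with genotype. In lncKO skin 1 of the 9, G0s2, rose against wild type, where 15.4% of all named probe sets were called, and 6.21% as higher. In miR-205 KO skin 0 of the 9 passed, where 16.8% were called, and 1 gave an unadjusted p under 0.05, where 32.1% did. In lncKO pituitary 0 passed, where 0.7% were called, and 2 gave an unadjusted p under 0.05, where 12.5% did. In miR-205 KO pituitary 0 passed, where 0.107% were called, and 1 gave an unadjusted p under 0.05, where 7.47% did. The median log2 difference of the 9 genes was 0.01 and -0.11 in lncKO and miR-205 KO skin, against -0.07 over all named probe sets in both, and 0.10 and -0.17 in the 2 pituitary comparisons, against 0.01. In each tissue the 2 knockouts share their 3 wild-type controls, so their values are not independent of each other. Setting the knockouts against each other, 0 of the 9 and 0% of all named probe sets passed in skin, where 0 of the 9 and 3.25% of all gave an unadjusted p under 0.05 in limma. In pituitary 0 of the 9 passed, where 0.291% did, and 1 gave an unadjusted p under 0.05, where 11.1% did.

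**Figure D2:**
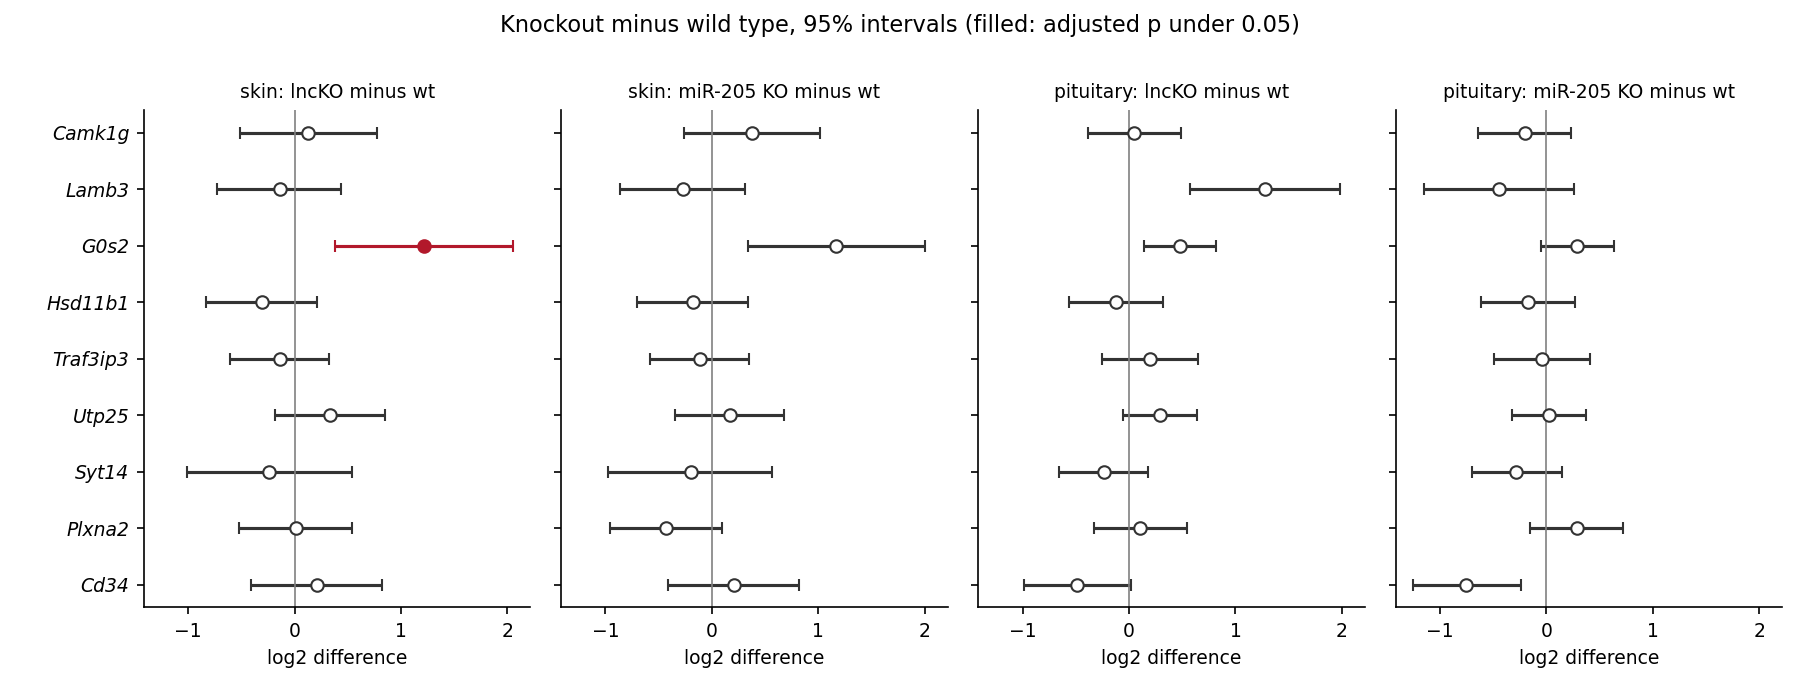
Log2 difference between knockout and wild type (x axis) for the 9 neighbours, with 95% intervals from limma. G0s2 in lncKO skin, at 1.22 with an interval of 0.38 to 2.05, is the filled point, the 1 value of the 36 drawn with an adjusted p under 0.05.

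The metabolic genes come first. G0s2 encodes a small protein that inhibits adipose triglyceride lipase, the enzyme that starts the breakdown of stored fat. In skin it read 671, 630 and 266 in wild type, 1026, 1940 and 708 in lncKO, and 1148, 1034 and 1086 in miR-205 KO. Every knockout sample lay above every wild-type sample, although lncKO sample 6 and wild type 1 were close. The difference was 1.22 ± 0.39 on the log2 scale in lncKO (2.32-fold, limma adjusted p = 0.0493) and 1.17 ± 0.39 in miR-205 KO (95% interval 0.34 to 2.00, adjusted p = 0.0535), on opposite sides of the threshold although nearly equal. Groups did not overlap in the upward direction for 13.3% of all named probe sets in lncKO skin and 14.9% in miR-205 KO skin. Between lncKO and miR-205 KO the difference was 0.04 ± 0.39, with an interval of -0.79 to 0.87. The lncKO call rested on single samples. It was 0.79 without wild type 3 (adjusted p = 0.162), the sample with the high Tsc22d3 value, and 0.82 without lncKO 5 (0.170), and it was lost at 1.41 without wild type 2 (0.0547) and at 1.28 without lncKO 4 (0.0948). With quantile normalization G0s2 in miR-205 KO passed as well, at 1.30 (0.0329), and with a floor at 16 the lncKO call was lost (0.170). Leaving out 1 sample at a time, the miR-205 KO difference ran from 0.74 (without wild type 3) to 1.41 (without wild type 1, adjusted p = 0.0419 to 0.182).

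In pituitary G0s2 was dim, at 31, 31 and 38 in wild type, 46, 45 and 48 in lncKO, and 40, 41 and 41 in miR-205 KO. Here too no knockout sample overlapped with wild type, but neither difference passed, at 0.48 ± 0.16 in lncKO (adjusted p = 0.218) and 0.29 ± 0.16 in miR-205 KO (adjusted p = 0.736). Non-overlap upwards was found for 8.84% of all named probe sets in the first comparison and 5.89% in the second. The response of G0s2 in pituitary minus that in skin was -0.73 ± 0.45 for lncKO and -0.88 ± 0.45 for miR-205 KO (adjusted p = 0.327 and 0.220), so a difference between the tissues was not shown. In wild type its level was lower in pituitary than in skin by 3.86 ± 0.32 on the log2 scale (14.5-fold, adjusted p = 1.30e-09).

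Some genes of lipid droplets were higher in the same knockout skin. Of 12 measured genes of lipolysis and the lipid droplet, 4 rose in lncKO skin and 0 fell, counting G0s2, and 3 were higher and 0 lower in miR-205 KO skin. The list's median differences were 0.32 and 0.30, against -0.07 over all named probe sets, of which 15.4% and 16.8% were called. Plin4, a coat protein of lipid droplets, read 217, 586 and 295 in wild type, 1192, 1205 and 1800 in lncKO and 992, 1201 and 1428 in miR-205 KO, and rose by 2.04 ± 0.33 and 1.83 ± 0.33 (adjusted p = 0.00207 and 0.0036). Cidec, which promotes droplet growth, rose by 2.74 ± 0.56 and 2.68 ± 0.56 (adjusted p = 0.00679 and 0.00715), both lost with a floor at 16 (0.0672 and 0.0693). Pnpla2, which encodes the lipase that G0s2 inhibits, did not pass, at 0.42 ± 0.32 and 0.41 ± 0.32 (adjusted p = 0.387 and 0.398). Neither did the list genes Lipe, at -0.12 ± 0.46 and -0.15 ± 0.46, and Abhd5, at -0.15 ± 0.24 and -0.24 ± 0.24. In pituitary 0 of the 12 passed in either knockout.

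Some markers of fat and of other cell types were higher in the same knockout skin. Of 7 measured fat markers 4 rose and 0 fell in each knockout, namely Lep, Cidec, Pparg and Fabp4, with list medians of 1.04 and 1.10. Cidec and Plin1 belong to the lipid droplet list as well, so these lists are not separate. For all lists of skin here, 15.4% and 16.8% of all named probe sets were called in lncKO and miR-205 KO. The mean log2 intensity of the list was 10.38, 11.73 and 10.95 in wild-type skin, 11.88, 12.50 and 12.60 in lncKO and 11.89, 12.66 and 12.56 in miR-205 KO, so the groups did not overlap, and the summed intensity ran from 79732 to 129903, 155524 to 231926 and 156670 to 265201. Lep, which encodes the fat hormone leptin, read 245, 500 and 363 in wild type, 1646, 1938 and 1907 in lncKO and 838, 1964 and 3117 in miR-205 KO. In pituitary the list mean lay between 4.75 and 5.26 in all samples, and Adipoq, Lep and Plin1 read 16 or less in every one. Of 8 cartilage markers 4 rose in lncKO skin and 5 in miR-205 KO skin and 0 fell, with list medians of 1.22 and 1.26 and summed intensities of 13160 to 19025 in wild type, 40745 to 73749 in lncKO and 49302 to 65930 in miR-205 KO. The fibroblast genes Dpt and Dcn rose in both, 2 of 6 measured markers with 0 lower, with list medians of 0.37 and 0.11. The list's summed intensity was 858214 to 974024, 1322265 to 1634449 and 1436462 to 1516921. Dcn, at 621975 to 1151149 in the skin samples, made up most of each sum. The list's mean log2 intensity was 15.52 to 15.87 in wild type, 16.11 to 16.54 in lncKO and 15.80 to 16.32 in miR-205 KO. By that measure miR-205 KO overlapped with wild type. Of 8 skeletal muscle markers 2 and 3 rose and 0 fell, with sums of 57991 to 116637, 61959 to 202792 and 81518 to 154996, which overlapped. The part of fat, cartilage, fibroblast or muscle content in the G0s2 result was not tested.

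**Figure D3:**
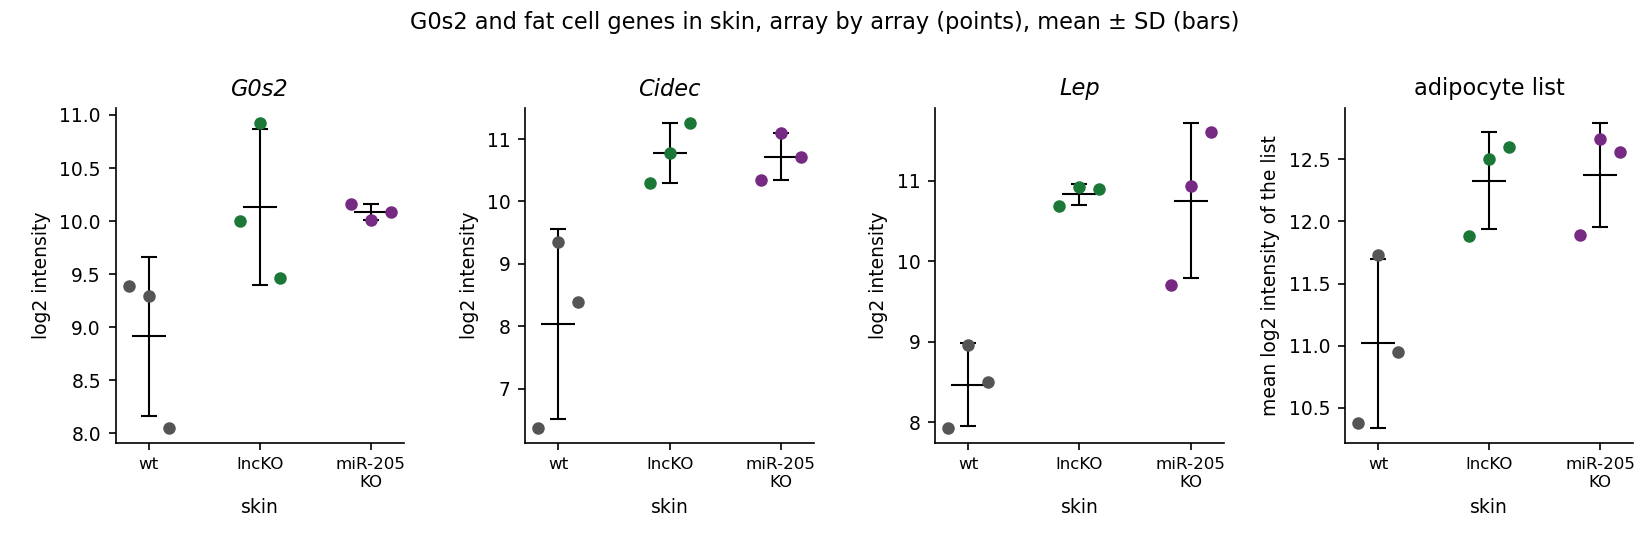
Log2 intensity of G0s2, Cidec and Lep, and the mean log2 intensity of 7 adipocyte markers, in each skin sample with group mean ± SD (n = 3). In all 4 panels the knockout points lie above the wild-type points, and the lowest wild-type point is sample 3 for G0s2 but sample 1 for the others.

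Hsd11b1 encodes the reductase that regenerates active glucocorticoid from its inert form inside cells. It read 1281, 1642 and 1742 in wild-type skin, 964, 1627 and 1236 in lncKO and 1217, 1410 and 1475 in miR-205 KO, and 2625, 3216 and 4092 in wild-type pituitary, 2815, 3367 and 2824 in lncKO and 2987, 2455 and 3300 in miR-205 KO. Genotypes overlapped in both tissues, while every pituitary sample lay above every skin sample. The 4 knockout differences ran from -0.31 ± 0.24 in lncKO skin (interval -0.83 to 0.21) to -0.12 ± 0.20 in lncKO pituitary (-0.56 to 0.32), and none passed. Wild-type pituitary was higher than skin by 1.08 ± 0.22 (2.11-fold, adjusted p = 2.96e-04).

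Other genes of glucocorticoid activation and response differed where Hsd11b1 did not pass. Of 12 measured genes, counting Hsd11b1, 4 rose and 1 fell in lncKO pituitary, where 0.7% of all named probe sets were called. In miR-205 KO pituitary 0 passed, where 0.107% were called. Sgk1, a kinase gene induced by glucocorticoids, read 358, 310 and 323 in wild type, 1090, 1050 and 1384 in lncKO and 528, 584 and 572 in miR-205 KO, a rise of 1.82 ± 0.17 in lncKO (adjusted p = 0.00294). Its value of 0.77 ± 0.17 in miR-205 KO did not pass (adjusted p = 0.217). Fkbp5, a chaperone gene of the receptor, rose by 1.60 ± 0.21 in lncKO (adjusted p = 0.0084) and Tsc22d3 by 1.56 ± 0.21 (0.00927), but neither passed without wild type 12 (0.0505 and 0.0529), with a floor at 16 (0.0586 and 0.0595) or with all 18 arrays in 1 fit (0.295 and 0.502). Nr3c1, the glucocorticoid receptor, gave -0.48 ± 0.24 and -0.36 ± 0.24 in the 2 pituitary comparisons (adjusted p = 0.456 and 0.815). In skin 1 of the 12 fell in each knockout, where 15.4% and 16.8% of all named probe sets were called. H6pd, which supplies the cofactor of the Hsd11b1 reductase, fell by 1.18 ± 0.27 in lncKO (adjusted p = 0.0125, and 0.0512 without lncKO 4) and gave -0.41 ± 0.27 in miR-205 KO (adjusted p = 0.329).

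Lamb3, the structural gene of the group, encodes a chain of the epidermal laminin that anchors keratinocytes to the basement membrane. In skin it read 475, 890 and 766 in wild type, 602, 800 and 500 in lncKO and 501, 578 and 637 in miR-205 KO, with overlapping ranges. The differences were -0.14 ± 0.27 (interval -0.73 to 0.44, adjusted p = 0.762) and -0.27 ± 0.27 (-0.86 to 0.31, adjusted p = 0.529). In pituitary, where it was dim, Lamb3 read 48, 19 and 26 in wild type, 72, 66 and 71 in lncKO and 28, 24 and 14 in miR-205 KO. All 3 lncKO samples lay above the other 6, which overlapped.

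The pituitary difference of Lamb3 was large but short of the threshold. It was 1.28 ± 0.32 in lncKO against wild type (2.42-fold, interval 0.57 to 1.98, adjusted p = 0.107) and 1.72 ± 0.32 in lncKO against miR-205 KO (interval 1.02 to 2.42, adjusted p = 0.0514), while miR-205 KO against wild type gave -0.44 ± 0.32 (adjusted p = 0.833). Without wild type 10 the first was 1.65 and passed (adjusted p = 0.0305). Lamb3 was 1 of 3 neighbours whose lncKO samples all lay above wild type in pituitary, with G0s2 and Utp25, as for 8.84% of all named probe sets. The same 3 genes were those whose lncKO samples all lay above miR-205 KO, a comparison in which 7.49% of all named probe sets did so. Wild-type pituitary was lower than skin by 4.58 ± 0.31 (23.9-fold, adjusted p = 7.87e-11).

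The lncKO response of Lamb3 differed between the tissues. Pituitary minus skin was 1.42 ± 0.44 (interval 0.49 to 2.34, adjusted p = 0.0494), the 1 call among the 9 neighbours in a contrast where 9.25% of all named probe sets were called, 5.88% as higher. The call was lost in 9 of the 12 fits that left out 1 sample, with adjusted p-values from 0.012 to 0.128 and differences from 1.12 to 1.79 over the 12. It was also lost with quantile normalization (1.22, 0.0837) and after centring arrays on their medians (1.32, 0.0598). For miR-205 KO the same contrast gave -0.17 ± 0.44 (adjusted p = 0.846), 0 of the 9 passed, where 9.95% of all named probe sets did, and 2 gave an unadjusted p under 0.05, where 25.9% did.

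The partners of Lamb3 in laminin and hemidesmosomes, the junctions that fix basal keratinocytes, included called genes in skin and none in pituitary. Of 9 measured genes, counting Lamb3, 0 were higher and 2 lower in lncKO skin, where 15.4% of all named probe sets were called. In miR-205 KO skin 0 were higher and 3 lower, where 16.8% were called. The list medians were -0.27 and -0.31, and 0 passed in either pituitary comparison. Itga3, an integrin receptor for this laminin, read 572, 896 and 843 in wild-type skin, 303, 265 and 328 in lncKO and 190, 273 and 240 in miR-205 KO, and fell by 1.35 ± 0.24 and 1.71 ± 0.24 (adjusted p = 0.00343 and 8.58e-04). Lama3, the alpha chain that assembles with the Lamb3 product, read 3143, 3548 and 4481 in wild type, 3168, 1439 and 2530 in lncKO and 1700, 1507 and 2007 in miR-205 KO. It gave -0.71 ± 0.29 in lncKO (adjusted p = 0.114) and fell by 1.09 ± 0.29 in miR-205 KO (adjusted p = 0.021), which did not hold when wild type 3 or sample 7 or 8 of miR-205 KO was left out (0.0685 to 0.0746). Itgb4, the hemidesmosome integrin, fell by 1.08 ± 0.28 and 0.88 ± 0.28 (adjusted p = 0.0218 and 0.0479), with calls lost without wild type 2, lncKO 4 or lncKO 5 in the first (0.0599 to 0.0758) and without any but wild type 1 in the second (0.0705 to 0.143).

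In pituitary Lama3 read 307, 286 and 168 in wild type, 274, 166 and 210 in lncKO and 160, 212 and 120 in miR-205 KO, so it did not share the order of Lamb3 across genotypes. Basal keratinocyte markers did not follow the order of Lamb3. By mean log2 intensity their lncKO values lay within the wild-type range and just below those of miR-205 KO, while by summed intensity the groups overlapped. The mean log2 intensity of the 7 markers was 6.12 to 6.34 in wild type, 6.23 to 6.28 in lncKO and 6.29 to 6.33 in miR-205 KO, the summed intensity 3559 to 4017, 3370 to 3569 and 3260 to 4187, and Krt5 read 16 or less in all 9 samples. In skin 1 of the 7 fell in each knockout, Itgb4 in both.

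**Figure D4:**
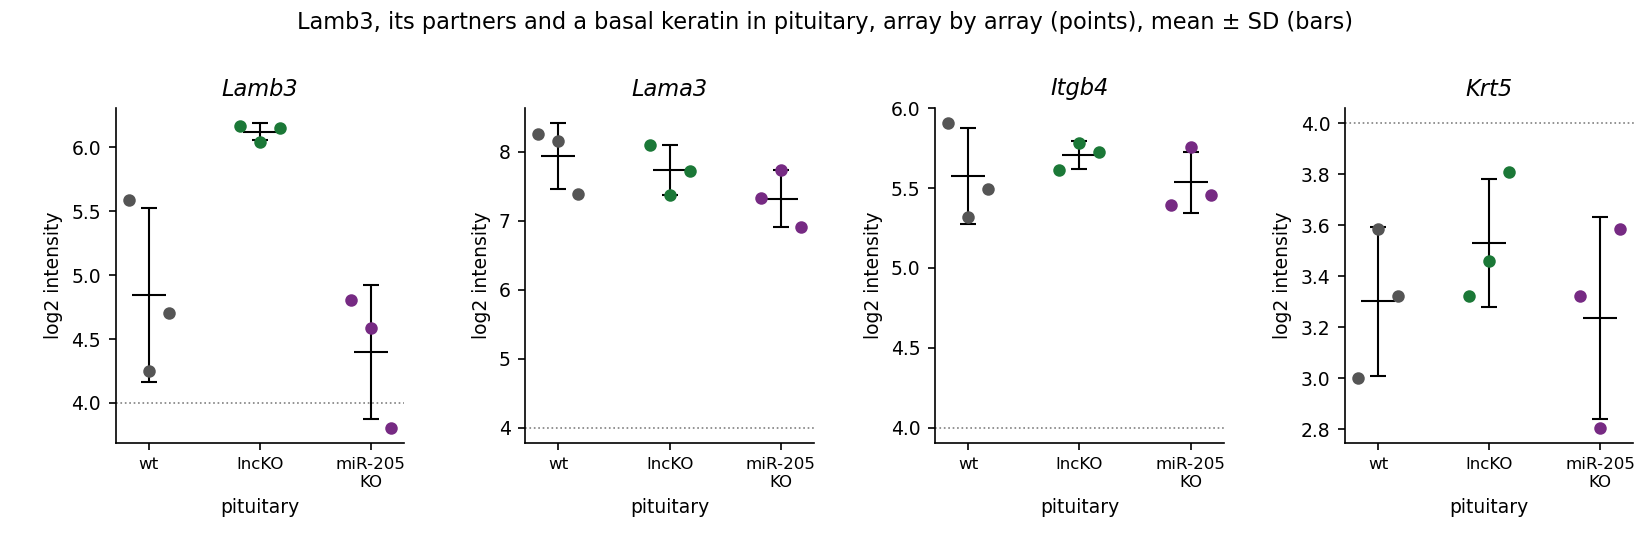
Log2 intensity of Lamb3, its partner chain Lama3, the integrin Itgb4 and the basal keratin Krt5 in each pituitary sample, with group mean ± SD (n = 3). The dotted line marks an intensity of 16. The 3 lncKO points of Lamb3 (66 to 72) lie above the other 6 (14 to 48), and the groups overlap for the other 3 genes.

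Cd34 encodes a sialomucin of the surface of endothelial cells, blood progenitors and hair follicle stem cells. It was bright in skin, at 13022, 22113 and 18394 in wild type, 13914, 28557 and 20494 in lncKO and 19186, 22570 and 18848 in miR-205 KO. The skin genotypes overlapped, with differences of 0.21 ± 0.28 in both knockouts (intervals -0.41 to 0.82). In pituitary it read 363, 666 and 453 in wild type, 406, 275 and 355 in lncKO and 274, 272 and 312 in miR-205 KO. All miR-205 KO samples lay below wild type, as for 4.58% of all named probe sets, while lncKO overlapped with it. Neither difference passed, at -0.75 ± 0.23 in miR-205 KO (interval -1.25 to -0.24, unadjusted p = 0.0074, limma adjusted p = 0.470) and -0.49 ± 0.23 in lncKO (-0.99 to 0.02, adjusted p = 0.416). Pituitary minus skin was -0.95 ± 0.38 for miR-205 KO (adjusted p = 0.116) and -0.70 ± 0.38 for lncKO (adjusted p = 0.268).

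Related surface genes gave no calls with genotype. Of 7 measured sialomucin and progenitor genes, counting Cd34, 0 passed in any of the 4 comparisons with wild type. Podxl, a sialomucin of the same family, gave 0.47 ± 0.24 and 0.13 ± 0.24 in lncKO and miR-205 KO pituitary, and Kdr, a receptor of endothelial growth factor, 0.84 ± 0.21 and 0.27 ± 0.21 (adjusted p = 0.466 and 0.953, and 0.101 and 0.856). The mean log2 intensity of 7 endothelial markers was 8.25 to 8.39 in wild-type pituitary, 8.44 to 8.68 in lncKO and 8.41 to 8.71 in miR-205 KO. These means lay slightly above wild type, but 0 of the 7 passed in either knockout. The part of endothelial content in the Cd34 values was not tested. Between wild-type tissues Cd34 was lower in pituitary by 5.19 ± 0.27 (36.4-fold, adjusted p = 8.37e-13), whereas 2 endothelial markers were higher there, 1 was lower, and the list median was 0.11.

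Syt14 and Camk1g are genes linked to secretion and calcium signalling. Syt14 encodes a synaptotagmin, a family of membrane trafficking proteins of which many members sense calcium. It read 25, 12 and 31 in wild-type skin, 19, 15 and 20 in lncKO and 15, 14 and 29 in miR-205 KO, and 4 of these 9 values were 16 or less. In pituitary it read 2112, 2254 and 1600 in wild type, 1725, 1592 and 1678 in lncKO and 1886, 1314 and 1731 in miR-205 KO. The genotypes overlapped in both tissues, and the tissue difference was 6.55 ± 0.31 (adjusted p = 1.56e-13), or 6.41 with a floor at 16, which 1 of the 3 wild-type skin values did not reach. Its pituitary differences were -0.24 ± 0.19 in lncKO (interval -0.66 to 0.18) and -0.28 ± 0.19 in miR-205 KO (-0.70 to 0.15).

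Of 16 measured members of the synaptotagmin family, counting Syt14, 11 were higher in wild-type pituitary than in skin, 0 were lower and 5 did not pass, where 25.7% of all named probe sets were higher. The median difference was 3.37 against -0.01 over all named probe sets, and Syt2 and Syt8 read 16 or less in all wild-type samples of both tissues. Syt1, the fast calcium sensor of secretion, was higher by 10.39 ± 0.22 and Syt4 by 9.30 ± 0.22 (adjusted p = 6.43e-19 and 1.86e-18). With genotype, 2 members rose and 2 fell in lncKO skin, where 15.4% of all named probe sets were called. In miR-205 KO skin 1 was higher and 3 lower, where 16.8% were called. Syt3 rose by 1.53 ± 0.23 and 1.52 ± 0.23 (adjusted p = 0.00119 and 0.00121), from 35 to 52 in wild type to 104 to 134 in the knockouts. Syt10 fell by 1.29 ± 0.24 and 1.14 ± 0.24 (adjusted p = 0.00388 and 0.00684), from 31 to 51 to a dim 14 to 19. The other called members were dim as well. Syt1 read 24 to 35 in wild type and 13 to 18 in the knockouts. Syt2 read 6 to 11 in wild type and 11 to 21 in lncKO, and Syt16 10 to 15 in wild type and 7 to 8 in miR-205 KO. In lncKO pituitary Syt6 was the 1 member of the 16 called, where 0.7% of all named probe sets were called. It fell by 1.52 ± 0.20 (adjusted p = 0.0084, or 0.0505 with wild type 12 left out), from 140 to 187 in wild type to 50 to 63, with 101 to 143 in miR-205 KO.

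Camk1g encodes a kinase of the calcium and calmodulin cascade found mainly in brain. It read 28, 26 and 40 in wild-type skin, 46, 27 and 31 in lncKO and 42, 28 and 55 in miR-205 KO, and 257, 286 and 261 in wild-type pituitary, 302, 275 and 256 in lncKO and 237, 301 and 176 in miR-205 KO. It lies next to Mir205hg in the order of measured genes, and its 4 knockout differences stayed between -0.20 ± 0.20 and 0.38 ± 0.30 with overlapping groups. The intervals in skin were -0.51 to 0.77 in lncKO and -0.26 to 1.02 in miR-205 KO. Pituitary exceeded skin by 3.12 ± 0.26 in wild type (8.7-fold, adjusted p = 1.99e-09). Of 10 measured genes of the cascade, counting Camk1g, 6 were higher and 1 lower in wild-type pituitary. Over all named probe sets 25.7% were higher there and 26.4% lower. With genotype 1 of the 10 passed, Camk2g in miR-205 KO skin, where 16.8% of all named probe sets were called. Camk2g fell by 0.70 ± 0.21 (adjusted p = 0.0364, but 0.0966 with quantile normalization and above 0.05 in 5 of the 6 fits that left out a sample).

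Plxna2, on the other side of Mir205hg, encodes a receptor for semaphorins, which steer axons and other migrating cells. It read 809, 729 and 869 in wild-type skin, 729, 732 and 974 in lncKO and 454, 801 and 581 in miR-205 KO. In pituitary it read 461, 368 and 313, 435, 382 and 397, and 370, 523 and 497 in the same order. Genotypes overlapped in each tissue, with differences of 0.01 ± 0.25 and -0.43 ± 0.25 in skin (intervals -0.52 to 0.54 and -0.96 to 0.10) and 0.10 ± 0.20 and 0.29 ± 0.20 in pituitary. The miR-205 KO response in pituitary minus that in skin was 0.71 ± 0.32, with an unadjusted p of 0.0354 in limma and an adjusted p of 0.158. Wild-type pituitary was lower by 1.09 ± 0.22 (2.13-fold, adjusted p = 2.90e-04).

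Other plexin and semaphorin genes were called in skin. Of 15 measured, counting Plxna2, 1 rose and 5 fell in each knockout, and 0 passed in pituitary. In lncKO and miR-205 KO skin 15.4% and 16.8% of all named probe sets were called. Plxna1, which encodes another class A plexin, read 905, 1426 and 1228 in wild-type skin, 267, 412 and 349 in lncKO and 261, 392 and 342 in miR-205 KO, and fell by 1.79 ± 0.26 and 1.83 ± 0.26 (adjusted p = 0.001 and 8.42e-04). Sema6b, a ligand of class A plexins, fell by 1.80 ± 0.38 and 2.36 ± 0.38 (adjusted p = 0.00866 and 0.00201). Sema3e, a ligand of another plexin class, was the gene that rose, by 1.26 ± 0.25 and 0.89 ± 0.25 (adjusted p = 0.00566 and 0.0268), the latter lost in 5 of the 6 fits that left out a sample. Markers of neurons fell as well. Of 7 measured, 5 fell in lncKO skin and 6 in miR-205 KO skin and 0 rose. Their mean log2 intensity was 5.51 to 5.66 in wild type, 4.38 to 4.52 in lncKO and 4.23 to 4.65 in miR-205 KO. The summed intensity was 2840 to 4407, 1922 to 2319 and 1239 to 2612. Most of these markers were dim, and 5 and 4 of the 7 read 16 or less in every lncKO and miR-205 KO skin sample. In wild-type skin Nefl read 29 to 38, Slc17a7 32, Rbfox3 22 to 24, Syt1 24 to 35 and Snap25 13 to 20. Map2 was far brighter, at 2691 to 4265, and passed in miR-205 KO only. The part of these markers in the plexin and synaptotagmin results of skin was not tested.

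Traf3ip3 and Utp25 showed the narrowest range. Traf3ip3, a gene of lymphocytes that encodes a partner of the signalling adaptor TRAF3, read 17 to 25 in skin and 12 to 20 in pituitary, with 4 of 9 pituitary values at 16 or less. Its knockout differences lay between -0.14 ± 0.22 and 0.20 ± 0.21. Wild-type pituitary was lower by 0.56 ± 0.21 (1.48-fold, adjusted p = 0.0267), but did not pass with wild type 3 (0.0843) or wild type 12 (0.130) left out. The mean log2 intensity of 7 T and B cell markers was 5.20 to 5.77 in skin and 4.38 to 4.95 in pituitary, and the B cell receptor genes Cd79a and Cd79b read 16 or less in all 9 skin samples. Of 11 measured genes of TRAF3 signalling, counting Traf3ip3, 2 rose and 1 fell in each knockout skin, and 0 passed in pituitary. The skin shares over all named probe sets were 15.4% in lncKO and 16.8% in miR-205 KO. Birc2, a ubiquitin ligase gene, rose by 1.19 ± 0.25 in lncKO skin (adjusted p = 0.00865).

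Utp25 encodes a factor of the complex that processes the small ribosomal subunit in the nucleolus. It read 57, 80 and 54 in wild-type skin, 71, 80 and 87 in lncKO and 59, 88 and 67 in miR-205 KO. In pituitary it read 65, 54 and 64 in wild type, 78, 71 and 74 in lncKO and 66, 58 and 62 in miR-205 KO, so that the lncKO samples lay above the other 6 there. That difference was 0.29 ± 0.16 against wild type (interval -0.06 to 0.64, adjusted p = 0.494) and did not pass. Of 19 measured genes of the same complex, counting Utp25, 1 rose and 2 fell in lncKO skin, where 15.4% of all named probe sets were called. In miR-205 KO skin 1 was higher and 3 lower, where 16.8% were called, and 0 passed in pituitary. Utp3 rose by 1.19 ± 0.21 and 1.48 ± 0.21 (adjusted p = 0.00308 and 8.55e-04) and Utp15 fell by 1.11 ± 0.21 and 1.02 ± 0.21 (adjusted p = 0.00427 and 0.0063).

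The order of the 6 group means summed up each gene's pattern. For Syt14, Camk1g and Hsd11b1 the 3 pituitary groups came first, for Lamb3, G0s2, Cd34, Plxna2 and Traf3ip3 the 3 skin groups did, and for Utp25 the tissues were mixed. Neighbouring groups in that order had overlapping ranges except at the step between tissues, which did not overlap for Camk1g, Lamb3, G0s2, Hsd11b1, Syt14 and Cd34, and in 2 genes within a tissue. Lamb3 separated lncKO from wild-type pituitary, and G0s2 separated wild type from the next skin group and all 3 pituitary groups from each other. None of these pituitary differences passed, and pituitary G0s2 read only 31 to 48. Upward non-overlap was found for 8.84% of all named probe sets in lncKO against wild-type pituitary and 5.89% in miR-205 KO against wild type. Between lncKO and miR-205 KO pituitary it was found for 7.49%, and between miR-205 KO and wild-type skin for 14.9%.

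The measured genes around the host locus were followed further out. On the side of Camk1g the measured and named genes run, from Mir205hg outwards, Camk1g, Lamb3, G0s2, Hsd11b1, Traf3ip3, A130010J15Rik, Utp25 and Syt14, and on the other side Plxna2 and Cd34 come first. Extending to the 15 nearest such genes on the first side, and to the 5 that the chromosome holds on the second, gave 20 genes. In lncKO skin 2 of the 20 rose, Rd3 and G0s2, and 0 fell, and in miR-205 KO skin 1 rose, Rd3, and 1 fell, Cr1l, while 0 of the 20 passed in either pituitary comparison. Over all named probe sets 15.4% and 16.8% were called in the 2 skin comparisons, with 6.21% called as higher in lncKO skin. In the 2 pituitary comparisons 0.7% and 0.107% were called. Camk1g and Plxna2, next to the host gene, were not among the called genes. Whether distance from the locus played a part was not tested. Rd3, a photoreceptor gene and the 14th on its side, read 13, 15 and 15 in wild-type skin, 29, 37 and 23 in lncKO and 27, 32 and 19 in miR-205 KO. It rose by 1.03 ± 0.25 and 0.83 ± 0.25 (adjusted p = 0.017 and 0.0403) from a dim level, and with a floor at 16 neither passed (0.067 and 0.126), nor did the first without lncKO 5 (0.0605) or the second in 5 of the 6 fits that left out a sample (0.0713 to 0.145). Cr1l, a complement regulator gene beyond Cd34, fell by 0.86 ± 0.22 in miR-205 KO skin (adjusted p = 0.0209), which did not hold when wild type 3 or sample 7 or 9 of miR-205 KO was left out (0.0645 to 0.083). Its response in pituitary minus that in skin passed for lncKO, at 0.86 ± 0.27 (limma adjusted p = 0.0473), and for miR-205 KO, at 1.06 ± 0.27 (0.017). Over all named probe sets 9.25% and 9.95% were called in these contrasts.

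**Figure D5:**
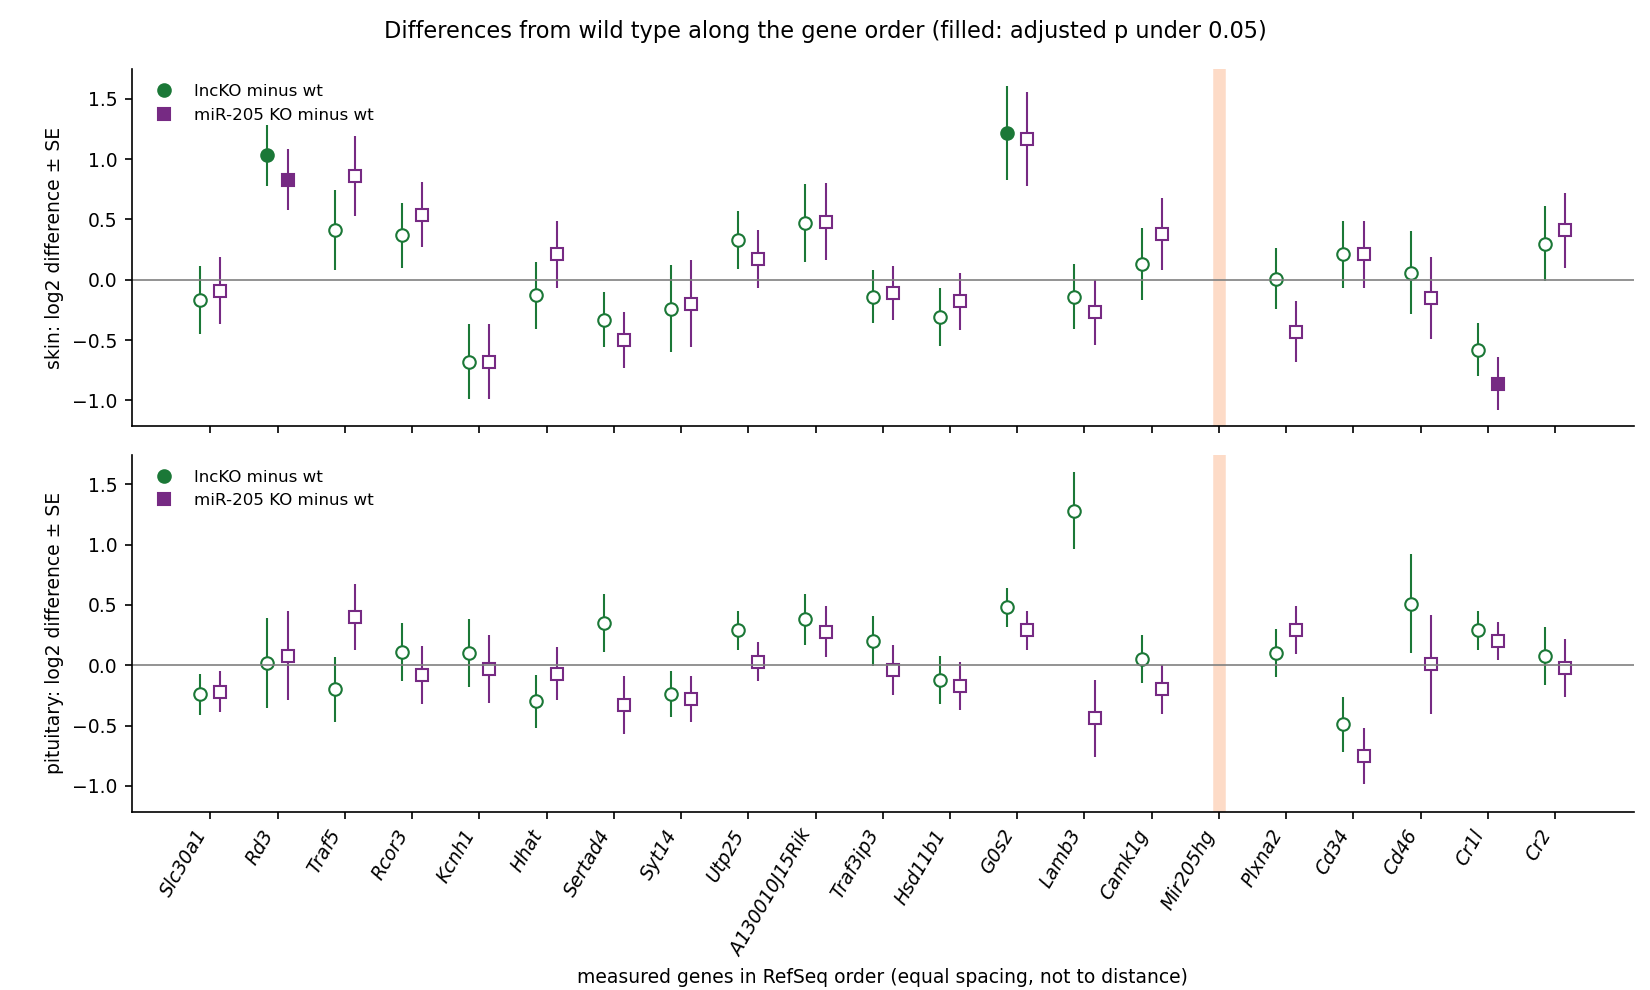
Log2 difference from wild type ± SE (y axis) for the 20 measured genes nearest to Mir205hg in RefSeq order, drawn at equal spacing, in skin (top) and pituitary (bottom). Circles are lncKO, squares miR-205 KO, and filled symbols have an adjusted p under 0.05. The filled points are Rd3, G0s2 and Cr1l, and the genes next to the shaded host locus, Camk1g and Plxna2, lie between -0.43 and 0.38 with open symbols.

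The genes whose pattern was most like that of each neighbour were found from the Pearson correlation of log2 intensity over the 18 arrays, after taking each tissue's mean from its samples, among 16930 probe sets above 16 in at least 1 group. These values are descriptive, since they were the highest of many and share arrays. Arl3 came first for G0s2 (r = 0.91), a small GTPase gene, with r = 0.96 within skin and 0.28 within pituitary, followed by Rps18 and S100b (both 0.90). For Lamb3 the first were Mxra8 and Pdlim1 (both 0.84) and Zfyve1 (0.83), closer within pituitary, where Mxra8 reached 0.90, than within skin (0.63). Pglyrp2 led for Camk1g (0.88), with 0.88 in skin and 0.87 in pituitary, then Tbk1 (0.82) and Slc38a11 (0.80). C4b, a complement gene, and Foxa2 followed Cd34 (both 0.84), with Rfpl4b at 0.78, and Odf3 (0.84), Eif4ebp1 and Usp39 (both 0.81) followed Hsd11b1. The remaining genes had first companions at 0.83 (Pmis2 for Utp25), 0.77 (Hbp1 for Traf3ip3, Plpp7 for Syt14 and Slc7a3 for Plxna2). No neighbour of the locus was among the 3 first companions of another.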

How the data were processed

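RNA of 18 mouse samples, 3 per group, was hybridised to Clariom S arrays. The deposited values were taken from the series' value table, where the authors give a whole-number intensity per probe set on a linear scale. How background and normalization were handled, and the genome build, are not stated by any source used here. Per the labels' protocols, the RNA came from an ear segment, and this text stands beside the pituitary samples too. Of 22206 probe sets 19572 carry 1 symbol in the platform annotation, all matched to RefSeq by gene ID, and 2634 without one were left out. Log2 intensity was fitted with limma 3.58.1 in R 4.3.3 (lmFit, eBayes), within each tissue (9 arrays, 6 residual degrees of freedom) and over 18 arrays (12) for tissue contrasts, with p-values adjusted by Benjamini-Hochberg over the 19572 and called under 0.05. No pseudocount or filter was used. The procedure was tested on simulated data. The members and gene lists were chosen with earlier results of these data known, and the genes named with them were list members past the threshold and the partners nearest in function. Any 2 arrays shared at most 5.49% identical values. The number of arrays limits the precision, with a median standard error of 0.26 in skin, 0.21 in pituitary and 0.34 for differences between tissues. Alternatives were the scaling, a floor at 16, a filter on dim probe sets, the variance model, the arrays in the fit, adjustment over all probe sets and leaving out each array.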

Additional observations from a re-analysis of the deposited data

Results flagged for a closer look

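The lncKO response of Lamb3 differed between the tissues by a test of that difference. Pituitary minus skin was 1.42 ± 0.44 (SE) on the log2 scale (limma adjusted p = 0.0494). The call was close to the threshold. It was kept in 3 of the 12 fits that left out 1 sample and in 2 of 7 other settings. Tissue and sex cannot be told apart in this contrast. In pituitary all 3 lncKO samples (66 to 72) lay above all 3 wild-type samples (19 to 48), and in skin the lncKO range (500 to 800) lay within that of wild type (475 to 890). The mean log2 intensity of Lamb3 was 4.84 ± 0.68 (SD, n = 3) in wild-type and 6.12 ± 0.07 in lncKO pituitary, against 9.42 ± 0.47 and 9.28 ± 0.34 in skin.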

How the results depend on the processing

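Of 1215 values of the 9 neighbours under alternatives, over 81 gene and comparison pairs, 1103 kept their direction and side of the threshold, 24 lost a call, 12 gained one, 76 values that were never called changed sign and 0 called values did. In lncKO skin the count of 1 (G0s2) became 0 with a floor at 16, with only the groups compared in the fit (adjusted p = 0.10) and with adjustment over all probe sets (0.0507), and was 0 to 1 leaving out each sample, where the G0s2 difference ran from 0.79 to 1.55 (0.0312 to 0.170). In miR-205 KO skin the count of 0 became 1 (G0s2) with quantile normalization (1.30, 0.0329), with median centring (1.26, 0.0366), with a variance trend and robust estimation (0.0422), with only the groups compared (0.0454) and with all 18 arrays (0.0108), and was 0 to 1 leaving out each sample, where the G0s2 difference ran from 0.74 to 1.41 (0.0419 to 0.182), passing without wild type 1 only. In lncKO pituitary it was 0 to 1, passing for Lamb3 without wild type 10. For lncKO against miR-205 KO pituitary the count of 0 became 1 (Lamb3) with median centring (0.0413), with the filter on dim probe sets (0.0472), with the variance trend (0.0145), with only the groups compared (0.0386) and with all 18 arrays (0.0158). The count of 1 (Lamb3) for the lncKO difference between tissues became 0 with quantile normalization, with median centring, with a floor at 16 (0.0802), with only the groups compared (0.0699) and with adjustment over all probe sets (0.0505), and was 0 to 1 leaving out each sample. Traf3ip3 lost its tissue difference with quantile normalization (-0.46, 0.0684). The causes were not tested.

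Over all named probe sets, calls in lncKO skin split 1215 higher to 1794 lower, 1539 to 1514 with quantile normalization and 1499 to 1458 with median centring, and in miR-205 KO skin 1328 to 1965, 1643 to 1629 and 1677 to 1590. The lncKO difference between tissues split 1151 to 660, 893 to 832 and 864 to 838, and that of miR-205 KO 1225 to 723, 907 to 856 and 882 to 981. The 2 scalings moved the median difference between tissues from 0.08 to -0.02 and -0.03 for lncKO and from 0.08 to -0.01 and -0.04 for miR-205 KO. With the floor, the variance trend and only the groups compared, calls numbered 11, 307 and 59 against 137 in lncKO pituitary, 0, 41 and 5 against 21 in miR-205 KO pituitary, and 18, 161 and 27 against 57 between the pituitary knockouts. With the floor, calls numbered 1937 against 3009 in lncKO skin and 2173 against 3293 in miR-205 KO skin, and with all 18 arrays 6 were called between the skin knockouts against 0. Leaving out each sample, calls over all named probe sets numbered 1886 to 2514 in lncKO skin, 1668 to 2775 in miR-205 KO skin, 11 (without wild type 12) to 123 in lncKO pituitary, 4 to 8 in miR-205 KO pituitary, 4 to 37 between the pituitary knockouts, 0 to 1 between the skin knockouts, 9569 to 9801 between wild-type tissues, and 1174 to 1847 and 1322 to 2006 for the lncKO and miR-205 KO differences between tissues. Of 62 calls on partner and nearby genes that were followed in this way, in 37 genes, 27 were kept under all alternatives and 0 changed sign. No paired analysis was possible because no sample number recurs between groups.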
